A study of Mus musculus with 21 samples.

Results

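The 41 genes described here are interferon-stimulated genes of the mouse outside antigen presentation, chosen by symbol as a list of sensors, transcription factors and effectors without MHC genes. This list and the lists of other genes were chosen with earlier results of these data known. Counts of listed genes beside shares of all genes are therefore descriptions. All 41 were rows of the deposited count table, which holds 24498 genes. RNA was sequenced from the hippocampus of male mice of 8 weeks that had received 2 g per kg of ethanol, injected intraperitoneally from a 20% solution. In the knockdown arm an AAV2/9 vector carrying U6.shACSS2.CMV.EGFP, a short hairpin RNA against Acss2 with a green fluorescent reporter, is described as injected stereotaxically into the dorsal hippocampus, although the text on the series could also mean systemic delivery. The enzyme encoded by Acss2 turns acetate, which the liver releases as it oxidises ethanol, into acetyl-CoA. The libraries analysed, all after ethanol, were 4 of dorsal hippocampus and 3 of ventral hippocampus with ACSS2 knockdown, 1 of total hippocampus with ACSS2 knockdown, 3 dorsal controls and 4 ventral controls. The other 6 of the 21 libraries, 2 knockdown libraries after ethanol and 4 dorsal libraries without ethanol, had at most 221847 gene reads and entered no comparison. No vector is described for the control arm, so the injection, the virus and the reporter cannot be told apart from the hairpin. The ventral knockdown tissue lies away from the described injection site. Neither the time between ethanol and dissection nor whether the replicates were separate animals is stated, so p-values measure the spread between these libraries, which may be technical.

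Interferons are secreted proteins, many of them released when a cell senses foreign or misplaced nucleic acid. They signal through receptors, JAK kinases and the factor ISGF3, which contains STAT2 and IRF9 and binds an interferon-stimulated response element (ISRE) in the promoters of its targets, while interferon gamma acts on gamma-activated sites (GAS). In the brain, microglia, astrocytes and endothelial cells express these targets strongly when interferon is present and at low levels otherwise.

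Promoters were read from RefSeq, and those of 8 members described below that hold an ISRE core are printed to show what the element looks like. A RefSeq promoter window, 250 bases before to 50 bases after the start, was found for 32 members on GRCm38.p6, the assembly of which mm10 is the browser name. The ISRE core was searched as GAAANNGAAA on either strand, which reads TTTCNNTTTC on the other, and N stands for any base. It was present in 18 of the 32 members (56.2%) and in 1079 of 27025 genes with a window (3.99%). The GAS core TTCNNNGAA, which reads the same on both strands and can overlap the ISRE core, was present in 8 members (25%) and in 2582 genes (9.55%). Matches of this kind describe letters, not binding. One sensor, one transcription factor, one modifier, 3 effectors and a pair of GTPases are shown, each 5′ to 3′ on the strand of the gene, with the ISRE core in capitals and neighbouring matches merged into one run.
Ddx58, chr4:40239779-40239858, minus strand: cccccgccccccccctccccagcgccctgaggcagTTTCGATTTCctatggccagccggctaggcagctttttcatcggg
Stat2, chr10:128270248-128270320, plus strand: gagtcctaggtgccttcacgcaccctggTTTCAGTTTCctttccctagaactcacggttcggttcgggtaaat
Isg15, chr4:156200852-156200931, minus strand: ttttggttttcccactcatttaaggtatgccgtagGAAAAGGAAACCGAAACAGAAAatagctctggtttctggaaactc
Ifit1, chr19:34640750-34640829, plus strand: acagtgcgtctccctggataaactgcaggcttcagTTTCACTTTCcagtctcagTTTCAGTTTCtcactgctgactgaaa
Ifit3, chr19:34583338-34583417, plus strand: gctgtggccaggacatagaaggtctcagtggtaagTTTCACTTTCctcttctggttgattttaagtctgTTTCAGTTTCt
Rsad2, chr12:26456528-26456607, minus strand: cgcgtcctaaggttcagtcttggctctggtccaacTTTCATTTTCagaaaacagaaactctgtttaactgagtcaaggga
Gbp3, chr3:142559964-142560043, plus strand: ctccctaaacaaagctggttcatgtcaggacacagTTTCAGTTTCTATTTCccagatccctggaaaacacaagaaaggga
Irgm1, chr11:48871406-48871485, minus strand: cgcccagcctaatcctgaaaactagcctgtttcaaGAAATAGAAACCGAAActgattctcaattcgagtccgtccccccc

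The Isg15 run holds 3 overlapping cores that start 78, 72 and 66 bases upstream of the transcript start. In Ifit1 the cores start 104 and 85 bases upstream, and in Ifit3 156 and 122 bases upstream. The Stat2 core lies farthest out among those shown, at 222 bases, whereas the Ddx58 core lies just after the start. The windows of Irf1, Irf7, Irf9, Trim25, Dtx3l, Ifit2, Oasl2, Cmpk2, Samd9l, Xaf1, Ifi35, Ifi44, Lgals3bp and Sp100 held no ISRE core. Zbp1, Dhx58, Parp9, Parp14, Oas2, Usp18, Gbp6, Rtp4 and Iigp1 had no entry.

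Gene reads numbered 2819837 to 13240179 in the 15 libraries used. The members took 406 of them in dorsal control 1, the shallowest library, and 18184 in dorsal knockdown 3. Levels are counts per 1000000 gene reads (CPM) scaled by TMM, a method that corrects for library composition. Acss2 (ENSMUSG00000027605.18, chromosome 2, 155517948 to 155585724, plus strand) checks the knockdown. It stood at 44.1, 40.8, 17.9 and 19.2 CPM in dorsal knockdown 1 to 4, against 52.7, 58.6 and 53.0 CPM in dorsal control 1 to 3. It stood at 28.8, 63.8 and 36.5 CPM in ventral knockdown 2 to 4, against 50.1, 53.9, 47.5 and 47.9 CPM in ventral control 1 to 4, and at 58.0 CPM in the total library. Every dorsal knockdown library was below every dorsal control, while ventral knockdown 3 and the total library were above most controls. The dorsal difference was -0.84 on the log2 scale (SE 0.32, edgeR quasi-likelihood test, unadjusted p = 0.0199, adjusted p = 0.964 by Benjamini-Hochberg), and an exact two-sided permutation test of log2 CPM gave p = 0.0857 where 0.0286 was the smallest possible. Libraries are named by their labels throughout, and ventral knockdown 3 and the total library are libraries labelled knockdown in which Acss2 was not lower.

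A pair of libraries stood apart from the others of their groups. Summed over the 41 members, the level was 178, 397, 1975 and 796 CPM in dorsal knockdown 1 to 4, against 180, 215 and 167 CPM in dorsal control 1 to 3. In the ventral tissue it was 447, 190 and 252 CPM in knockdown 2 to 4, against 190, 1340, 192 and 271 CPM in control 1 to 4, and it was 190 CPM in the total library. Dorsal knockdown 3 and ventral control 2 were thus the highest, dorsal knockdown 4 came next, and dorsal knockdown 1 lay within the range of the dorsal controls. Dorsal knockdown 3 held the highest level of 39 of the 41 members, and ventral control 2 that of the other two, Cmpk2 and Samd9l. Of the 14578 genes tested, 7.61% were highest in dorsal knockdown 3 and 1.77% in ventral control 2. These libraries were the top pair for 38 of 41 members and for 1.57% of tested genes. In bulk tissue, a larger number of cells that express a gene and more RNA per cell cannot be told apart.

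**Figure D1:**
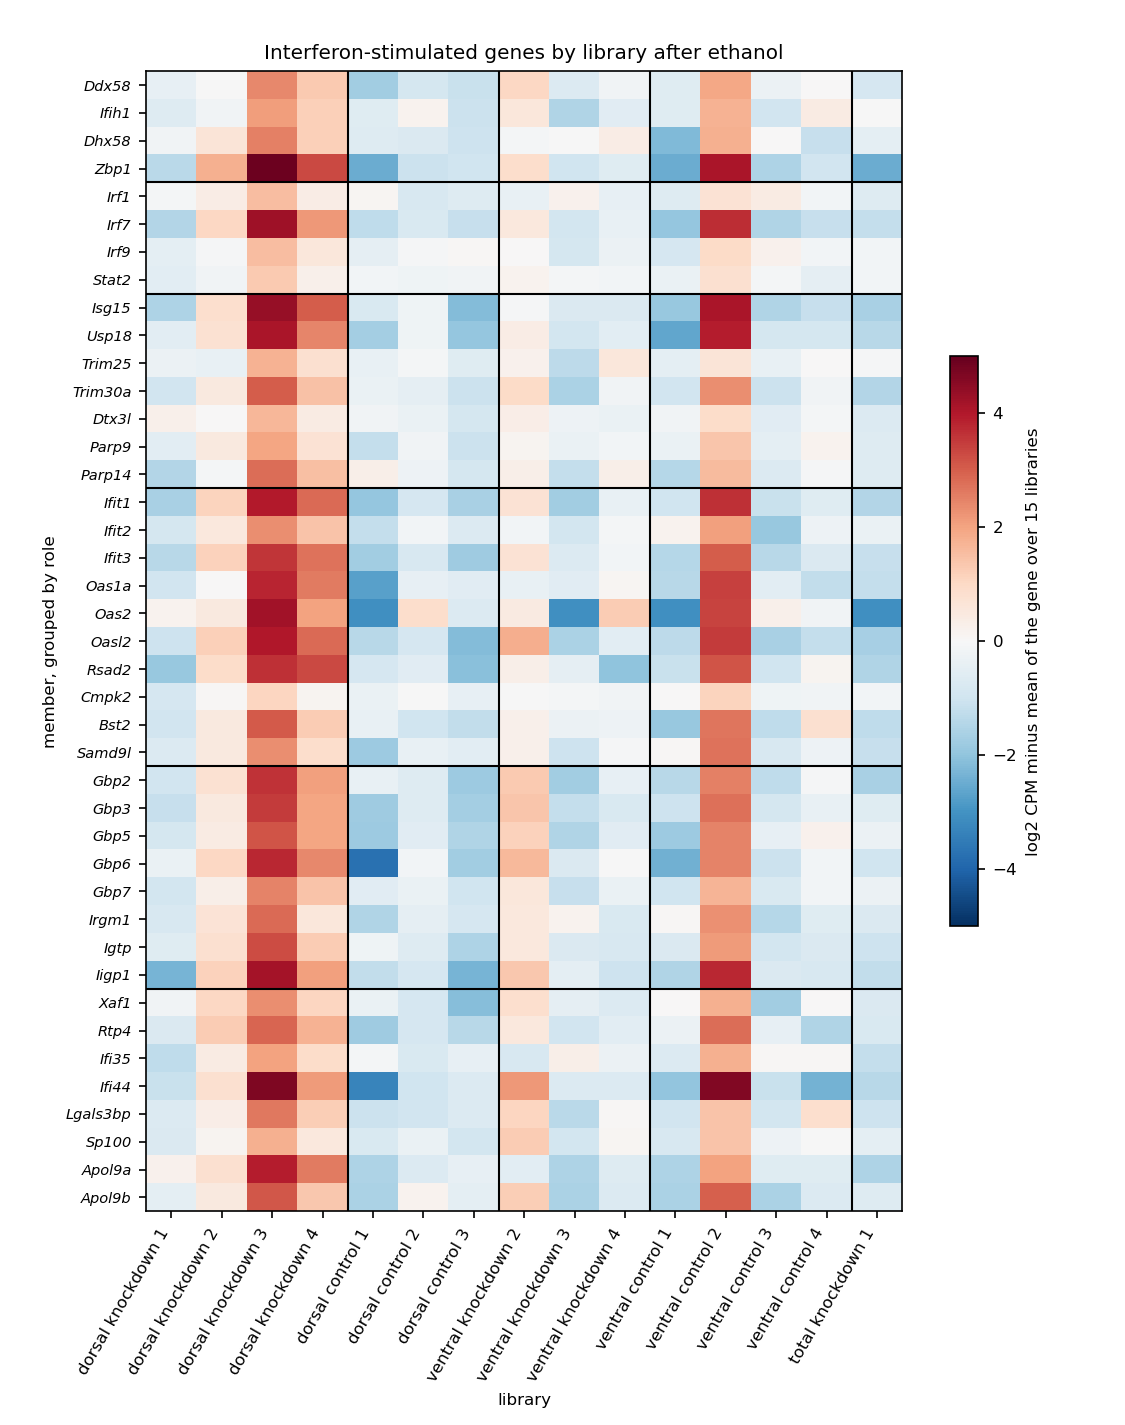
Each row is 1 of the 41 members, grouped by role, and each column a library. Colour gives log2 CPM minus the mean of that gene over the 15 libraries, from blue (below) to red (above). Nearly every row is red in dorsal knockdown 3, dorsal knockdown 4 and ventral control 2 and mostly pale or blue in dorsal knockdown 1 and the dorsal controls.

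The members varied together from library to library. The score of a library is the mean, taken over the 39 members that average 1 CPM or more, of log2 CPM (prior count of 1) minus the mean of each gene. It was -0.84, 0.55, 2.95 and 1.59 in dorsal knockdown 1 to 4, against -1.17, -0.49 and -1.16 in dorsal control 1 to 3. It was 0.58, -0.85 and -0.31 in ventral knockdown 2 to 4, against -1.10, 2.39, -0.79 and -0.38 in ventral control 1 to 4, and -0.97 in the total library. The correlation of each member with the score of the others over the 15 libraries ranged from 0.756 (Irf1) to 0.986 (Ifit1), a description that rests partly on the same high libraries. Members differed most in amplitude. The SD of log2 CPM over the libraries was lowest for Stat2 (0.48), Cmpk2 (0.50) and Irf1 (0.63). It was highest for Zbp1 (2.43), Ifi44 (2.40), Oas2 (2.29) and Isg15 (2.14). Zbp1, Ifi44 and Oas2 had 0 reads in some libraries, so their SD also depends on the prior count.

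Per kilobase of exon, the members with the highest median level were Lgals3bp (6.43 CPM per kb), Stat2 (6.04), Bst2 (5.65) and Cmpk2 (5.03). By the mean, which the high libraries carry, Ifit3 (16.2 CPM per kb), Lgals3bp (14.9), Bst2 (12.5) and Isg15 (11.2) led. Apol9a was lowest on both scales, with a mean of 0.110 CPM per kb. The order thus changed with the high libraries: Stat2 and Cmpk2 were read in every library, whereas Zbp1, Ifi44 and Oas1a were near 0 in most.

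In dorsal hippocampus, the fold change of knockdown over control was above 1 for every member tested, and none passed the test. The model had 4 group means over 14 libraries, without the total one, and tested 40 members (Apol9b was too low). The median log2 fold change was 2.53 over members (range 0.52 to 5.22) and 0.03 over all genes tested. Genes with an adjusted p under 0.05 numbered 0 (0%), members included, by the edgeR quasi-likelihood test with Benjamini-Hochberg adjustment. At an unadjusted p under 0.05, 31 of 40 members were higher, where 3.39% of all genes tested were higher. DESeq2 called 0 members and 6 genes, and put 36 of 41 members at an unadjusted p under 0.05. In 7 of the 41 members every knockdown library lay above every control, namely Ddx58, Dhx58, Dtx3l, Xaf1, Rtp4, Lgals3bp and Apol9a, as did 3.71% of all genes tested. Without dorsal knockdown 3 the median was 1.49 over 38 members, all higher, and 6 were at an unadjusted p under 0.05. Leaving out dorsal control 3 also lowered that number, to 7, with a median of 2.41. Here and below, shares of all genes at an unadjusted p under 0.05 come from the main edgeR fit or, for correlations, from permutation. Counts from DESeq2, or with a library left out, have no matching share of all genes beside them.

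**Figure D2:**
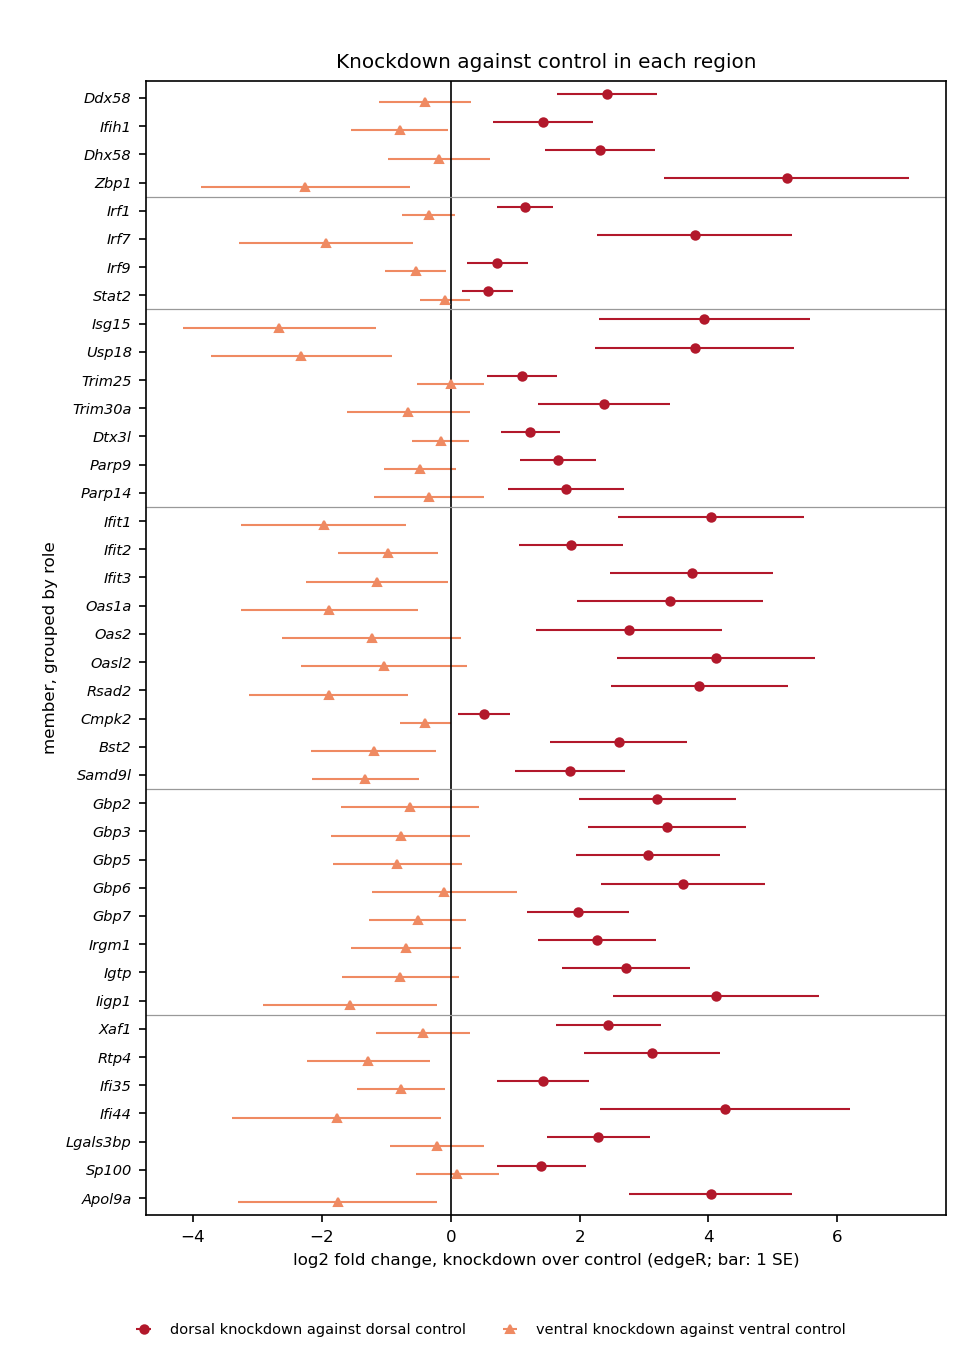
Points are log2 fold changes of knockdown over control from edgeR, with bars of 1 SE, for the 40 members tested. Dark red circles (dorsal) lie to the right of 0 in every row, from 0.52 for Cmpk2 to 5.22 for Zbp1. Orange triangles (ventral) lie left of 0 in all but Sp100 and 1 of the ISG15 and ubiquitin or ADP-ribose enzymes.

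Of the nucleic acid sensors, Ddx58 (ENSMUSG00000040296.15, chromosome 4, 40203773 to 40239828) encodes RIG-I, which binds short viral RNA with a triphosphate end. Ddx58 stood at 5.82, 7.57, 41.2 and 19.1 CPM in dorsal knockdown 1 to 4, against 2.21, 4.09 and 3.52 CPM in dorsal control 1 to 3. The groups did not overlap, even in dorsal knockdown 1, and the log2 fold change was 2.42 (SE 0.78, edgeR, unadjusted p = 0.00755, adjusted p = 0.955). Ddx58 in the ventral tissue stood at 15.6, 4.79 and 6.72 CPM in knockdown 2 to 4, against 5.05, 29.5, 6.31 and 7.87 CPM in control 1 to 4. Ifih1, the MDA5 sensor of long double-stranded RNA, stood at 3.83, 5.43, 26.2 and 14.3 CPM in dorsal knockdown 1 to 4, against 3.99, 6.95 and 2.81 CPM in dorsal control 1 to 3. Its groups overlapped, since only dorsal knockdown 3 and 4 exceeded the controls (log2 fold change 1.43, SE 0.77, unadjusted p = 0.0857 by edgeR). Zbp1, which senses nucleic acid in the Z form and can start necroptosis, was nearly unread at baseline. Zbp1 was at 0.142, 2.13, 19.9 and 6.40 CPM in dorsal knockdown 1 to 4, against 0, 0.190 and 0.211 CPM in dorsal control 1 to 3. Ventral control 2 held 11.2 CPM of Zbp1, against 0 to 0.219 in the other ventral controls. Its log2 fold change of 5.22 (SE 1.90) is the highest of the members and rests on few control reads.

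The transcription factors had the lowest median log2 fold change of the role groups, 0.94. Stat2 and Irf9 encode subunits of ISGF3. Stat2 (ENSMUSG00000040033.16, chromosome 10, 128270559 to 128292849) stood at 26.8, 34.7, 95.9 and 46.1 CPM in dorsal knockdown 1 to 4, against 35.4, 33.3 and 34.3 CPM in dorsal control 1 to 3. Irf9 stood at 9.51, 12.7, 39.2 and 19.6 CPM in dorsal knockdown 1 to 4, against 9.74, 12.7 and 14.1 CPM in dorsal control 1 to 3. In both genes dorsal knockdown 2 lay within the range of the controls and dorsal knockdown 1 below it, for Stat2 at the lowest level of the 15 libraries, and the other two libraries lay above it. The log2 fold change was 0.57 for Stat2 (SE 0.39, unadjusted p = 0.165) and 0.72 for Irf9 (SE 0.47, unadjusted p = 0.149), both by edgeR. Irf7, the factor that amplifies interferon alpha production, was added to the description after its values were seen. It stood at 1.56, 9.31, 87.7 and 20.8 CPM in dorsal knockdown 1 to 4, against 1.77, 2.57 and 1.97 CPM in dorsal control 1 to 3, a log2 fold change of 3.78 (SE 1.51). Its exons overlap those of Phrf1 on the other strand over 1.19% of their length. Irf1, the early factor downstream of interferon gamma, had a log2 fold change of 1.15 (SE 0.43).

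Among the ISG15 and ubiquitin or ADP-ribose enzymes, Isg15 encodes the ubiquitin-like modifier and Usp18 the protease that removes it and restrains the interferon receptor. Isg15 (ENSMUSG00000035692.6, chromosome 4, 156199424 to 156200818) stood at 0.709, 4.27, 49.1 and 20.0 CPM in dorsal knockdown 1 to 4, against 1.33, 2.00 and 0.422 CPM in dorsal control 1 to 3. Usp18 stood at 1.14, 2.91, 30.5 and 9.60 CPM in dorsal knockdown 1 to 4, against 0.443, 1.43 and 0.352 CPM in dorsal control 1 to 3. Dorsal knockdown 1 was within the range of the controls in both genes, and the other three were above it. The log2 fold changes were 3.94 for Isg15 (SE 1.63) and 3.78 for Usp18 (SE 1.54). Trim25, the ubiquitin ligase that activates RIG-I, stood at 7.66, 7.18, 31.7 and 16.1 CPM in dorsal knockdown 1 to 4, against 7.09, 8.66 and 6.12 CPM in dorsal control 1 to 3. Parp14, an ADP-ribose transferase, stood at 2.13, 5.63, 43.4 and 17.6 CPM in dorsal knockdown 1 to 4, against 7.53, 5.05 and 3.24 CPM in dorsal control 1 to 3. These 2 genes were above the controls only in dorsal knockdown 3 and 4, with log2 fold changes of 1.11 (SE 0.54) and 1.79 (SE 0.90). Dtx3l and Parp9 encode partner proteins and lie next to each other on opposite strands of chromosome 16. They had log2 fold changes of 1.24 (SE 0.46) and 1.66 (SE 0.59), and their exons overlap over 8% and 9.40% of their lengths, so reads may be shared, and no source used here gives the strand setting of the counting. The same doubt holds for Ifi35, with 16.8% of its exon length under a gene on the other strand, for Usp18 with 4.44%, for Dhx58 with 4.31% and for Irf1 with 3.40%.

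The antiviral effectors had a median log2 fold change of 3.09, with 8 of 10 at an unadjusted p under 0.05. Ifit3, which binds Ifit1 on viral RNA that lacks a methylated cap, stood at 4.54, 26.5, 142 and 78.7 CPM in dorsal knockdown 1 to 4, against 3.54, 6.85 and 3.38 CPM in dorsal control 1 to 3. Oasl2, a synthetase-like protein of the OAS family, stood at 4.54, 21.6, 153 and 68.8 CPM in dorsal knockdown 1 to 4, against 3.54, 5.24 and 2.04 CPM in dorsal control 1 to 3. In both, dorsal knockdown 1 was at the level of the controls and the other three were well above the highest control. The log2 fold changes were 3.74 for Ifit3 (SE 1.27, edgeR unadjusted p = 0.0103, adjusted p = 0.955) and 4.11 for Oasl2 (SE 1.53, edgeR unadjusted p = 0.0175). Ifit1 stood at 1.70, 12.03, 85.8 and 39.9 CPM in dorsal knockdown 1 to 4, against 1.33, 2.95 and 1.69 CPM in dorsal control 1 to 3. Rsad2, the viperin enzyme that makes a chain-ending nucleotide, stood at 0.568, 4.75, 32.8 and 25.2 CPM in dorsal knockdown 1 to 4, against 1.33, 1.62 and 0.492 CPM in dorsal control 1 to 3. In both, dorsal knockdown 1 lay within the range of the controls and the other three above it. Cmpk2, a nucleotide kinase, is the head-to-head neighbour of Rsad2 on chromosome 12, with 12751 bases between the genes, and was named after its values were seen. It stood at 12.5, 23.3, 46.8 and 24.5 CPM in dorsal knockdown 1 to 4, against 17.7, 21.8 and 16.7 CPM in dorsal control 1 to 3. The log2 fold change was 3.86 for Rsad2 (SE 1.37) and 0.52 for Cmpk2 (SE 0.40), the lowest of the members. Ifit3 shares 51.2% of its 50-base words with Ifit3b, and Oas1a shares 57.6% with Oas1g, so the counting could split reads within these pairs.

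All 8 interferon-inducible GTPases, which attack the vacuoles of intracellular microbes, were at an unadjusted p under 0.05, with a median log2 fold change of 3.13. Irgm1, a regulator of the other immunity-related GTPases, stood at 7.24, 20.4, 90.8 and 18.7 CPM in dorsal knockdown 1 to 4, against 4.43, 9.23 and 7.04 CPM in dorsal control 1 to 3. Gbp3, a guanylate-binding protein, stood at 2.84, 8.92, 73.3 and 25.7 CPM in dorsal knockdown 1 to 4, against 1.77, 4.09 and 1.90 CPM in dorsal control 1 to 3. In both, dorsal knockdown 1 overlapped the controls and the other three lay above them. The log2 fold changes were 2.26 for Irgm1 (SE 0.92, edgeR unadjusted p = 0.0265) and 3.35 for Gbp3 (SE 1.23, edgeR unadjusted p = 0.0159). The other 6 ranged from 1.98 (Gbp7) to 4.12 (Iigp1). Gbp6 shares 70.7% of its 50-base words with other genes and is uncertain for that reason.

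The remaining members had a median log2 fold change of 2.45. Lgals3bp, a secreted galectin-binding glycoprotein, stood at 18.3, 37.3, 182 and 68.8 CPM in dorsal knockdown 1 to 4, against 13.7, 14.9 and 18.2 CPM in dorsal control 1 to 3. Xaf1, an antagonist of the inhibitor of apoptosis XIAP, stood at 4.97, 11.9, 28.9 and 12.001 CPM in dorsal knockdown 1 to 4, against 4.43, 3.14 and 1.20 CPM in dorsal control 1 to 3. Rtp4, a chaperone of receptors with antiviral activity, stood at 1.99, 8.15, 26.3 and 11.6 CPM in dorsal knockdown 1 to 4, against 0.886, 1.81 and 1.20 CPM in dorsal control 1 to 3. In all 3 genes the groups were separate, though the lowest knockdown library cleared the highest control by little. The log2 fold changes were 2.29 for Lgals3bp (SE 0.80), 2.45 for Xaf1 (SE 0.82) and 3.12 for Rtp4 (SE 1.06). Apol9a had the smallest unadjusted p of the members in this comparison, 0.00644 by edgeR (log2 fold change 4.03, SE 1.27), at 0.284, 0.485, 5.10 and 2.00 CPM in dorsal knockdown 1 to 4, against 0, 0.0952 and 0.141 CPM in dorsal control 1 to 3. That is a low level, and Apol9a shares 16.5% of its 50-base words with Apol9b, which shares 52.3% in turn. Members with an ISRE core in the promoter window had a median log2 fold change of 3.06 (17 tested, 0.57 to 4.04), and those with a window but no core 1.64 (14 tested, 0.52 to 4.26), ranges that overlap almost wholly.

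**Figure D3:**
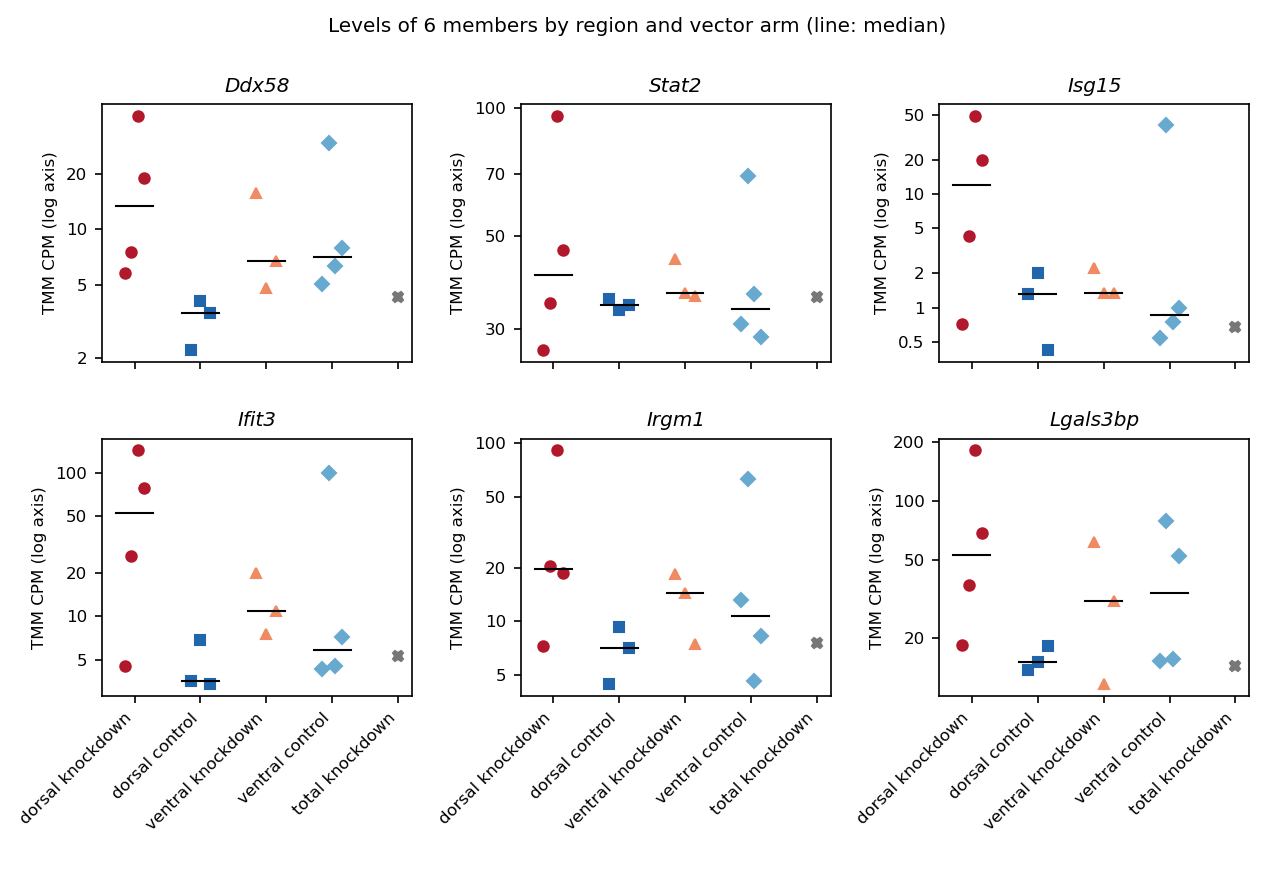
Each panel gives the level of 1 member in CPM on a log axis, with 1 point per library and a line at the group median. Ddx58 and Lgals3bp are higher in each dorsal knockdown library than in the dorsal controls, whereas Isg15, Ifit3 and Irgm1 overlap through dorsal knockdown 1, and Stat2 through dorsal knockdown 1 and 2. One ventral control library, number 2, is high in all 6.

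In the ventral tissue the labelled knockdown libraries were lower than the controls for 38 of 40 members, with a median log2 fold change of -0.78 (all genes -0.01). The edgeR test called 0 members and 0 genes (0%). At an unadjusted p under 0.05, 0 members were lower, where 2.46% of all genes tested were, and DESeq2 likewise called 0 members and put 0 of them at an unadjusted p under 0.05, with 34 genes called. The direction rested on ventral control 2. Without it, 34 of 38 members were higher in ventral knockdown and the median was 0.54, whereas without ventral knockdown 2 the median was -1.41. Ventral control 4 differed in composition, with 19782 CPM of choroid plexus markers, against 156 to 226 CPM in ventral knockdown and 157 to 834 CPM in the other ventral controls. In this comparison 9 of 9 choroid plexus markers (median -5.16) and 6 of 6 ependyma markers (median -1.96) were lower as well. Without ventral control 4, 38 of 40 members were lower, with a median of -0.997. The 3 members with the smallest p were Isg15, Usp18 and Samd9l. Isg15 stood at 2.22, 1.35 and 1.34 CPM in ventral knockdown 2 to 4, against 0.541, 41.2, 0.749 and 0.983 CPM in ventral control 1 to 4. Usp18 stood at 2.22, 0.833 and 1.14 CPM in ventral knockdown 2 to 4, against 0.180, 27.5, 0.855 and 0.874 CPM in ventral control 1 to 4. For Isg15 each knockdown library was above 3 of the 4 controls and far below the other one, and its log2 fold change of -2.66 (SE 1.50, edgeR unadjusted p = 0.0975) became 1.06 without that control. Usp18 had a log2 fold change of -2.32 (SE 1.40), and 1.02 without that control. Samd9l, a restriction factor of poxviruses, stood at 7.64, 3.12 and 6.20 CPM in ventral knockdown 2 to 4, against 6.67, 42.5, 3.64 and 5.46 CPM in ventral control 1 to 4. Its groups overlapped apart from ventral control 2 (log2 fold change -1.33, SE 0.83). Among the ventral knockdown libraries number 2 was the highest for most members. It held 33.6 CPM of Oasl2, against 3.12 and 6.62 in the other two, and 17.0 CPM of Gbp3, against 2.71 and 3.72.

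The difference between regions in the effect of the labelled knockdown was tested as an interaction. The dorsal effect minus the ventral effect was positive for 40 of 40 members with a median of 3.34 on the log2 scale (all genes 0.05). With edgeR 0 members and 0 genes were called (0%), and 32 members were at an unadjusted p under 0.05 in that direction, where 2.79% of all genes tested were. DESeq2 called 0 members and 7 genes, with 33 of 41 members at an unadjusted p under 0.05. The smallest p of the members were those of Rsad2 (5.76, SE 1.84, unadjusted p = 0.00709), Ifit1 (6.02, SE 1.92, unadjusted p = 0.00716) and Rtp4 (4.40, SE 1.42, unadjusted p = 0.00779), all with an adjusted p of 0.998 by edgeR. Without ventral control 2 the median was 1.95 and 5 members had an unadjusted p under 0.05. Without dorsal knockdown 3 the median was 2.30 with 12 such members, and without both libraries it was 0.96 with 0. Such members numbered 16 without dorsal control 3, and 21 without ventral knockdown 3 or without ventral knockdown 4.

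Comparing regions within an arm, 40 of 40 members were higher in dorsal than in ventral knockdown libraries, with a median log2 fold change of 1.71 (all genes -0.01). Again 0 members and 0 genes were called by edgeR (0%), and 7 members were at an unadjusted p under 0.05, where 1.28% of all genes tested were higher. DESeq2 called 0 members and 0 genes, with 15 members at an unadjusted p under 0.05. The 3 with the smallest p were Apol9a (4.50, SE 1.29), Rsad2 (3.16, SE 1.25) and Zbp1 (3.73, SE 1.61). Rsad2 stood at 0.568, 4.75, 32.8 and 25.2 CPM in dorsal knockdown 1 to 4, against 3.08, 1.77 and 0.517 CPM in ventral knockdown 2 to 4. Dorsal knockdown 1 lay among the ventral values and the other three above them. Without dorsal knockdown 3 the median was 0.66, with 35 of 38 members higher and 0 at an unadjusted p under 0.05. Members at that level numbered 1 to 3 without dorsal knockdown 4, ventral knockdown 3 or ventral knockdown 4, and 11 to 22 without dorsal knockdown 1 or 2, ventral knockdown 2 or ventral control 1, 2 or 3.

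In the control arm the direction was the opposite. All 40 members were lower in dorsal than in ventral controls, with a median log2 fold change of -1.62 (all genes -0.06). With edgeR 0 members and 0 genes were called (0%), and Ddx58, Rtp4 and Ifit1 were at an unadjusted p under 0.05, where 2.99% of all genes tested were lower. DESeq2 called 0 members and 13 genes, with 18 members at an unadjusted p under 0.05. Ifit1 stood at 1.33, 2.95 and 1.69 CPM in dorsal control 1 to 3, against 2.71, 70.2, 2.46 and 3.50 CPM in ventral control 1 to 4. Choroid plexus markers were lower in 9 of 9 here too, and without ventral control 4 the median of the members was -1.92. Without ventral control 2 the median was -0.17, with 28 of 38 members lower and 0 at an unadjusted p under 0.05. Members at that level numbered 0 to 1 without any 1 of the dorsal controls, and 8 to 18 without dorsal knockdown 1 or 3 or ventral control 1, 3 or 4. Ddx58 was the one member whose groups did not overlap, at 2.21 to 4.09 CPM in dorsal controls against 5.05 to 29.5 CPM in ventral controls, and 3.62% of all genes tested did not overlap in that direction, so that 1 of 41 members is no more than that share. These comparisons share libraries with each other, so their values are set side by side and are not independent.

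Acss2 was set against the members library by library. Over the 15 libraries, the correlation of log2 CPM with that of Acss2 was negative for 41 of 41 members, with a median Pearson r of -0.64 (range -0.78 to -0.38) and a median Spearman rho of -0.48. Over the 14577 genes tested besides Acss2 the median r was 0.01. By permutation, 39 members by r and 17 by rho were negative at an unadjusted p under 0.05, where 5.54% and 4% of all genes tested were. After adjustment over all genes 0 members and 12 other genes passed by r, and the lowest adjusted p of a member was 0.105. Trim25 (r = -0.78, permutation p = 0.00064, adjusted p = 0.105, rho = -0.57) and Lgals3bp (r = -0.78, permutation p = 0.00069, adjusted p = 0.107, rho = -0.71) were the strongest. Dorsal knockdown 3 and 4, the libraries farthest from the median Acss2, carried much of it. Without them the median r was -0.24, r was -0.48 for Trim25 and -0.57 for Lgals3bp, and 38 of 41 members were negative. Without dorsal knockdown 3 and ventral control 2, the libraries with the highest member levels, the median r was -0.75 and all 41 members were negative. Each pair of values comes from the same library and shares its depth and tissue. The permutations mixed arms and regions, so their p-values include differences between groups.

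The arms were also taken apart. Permutations within an arm mixed the regions, so their p-values include any difference between regions. In dorsal and ventral knockdown the mean of Acss2 was 30.5 and 43.1 CPM, and the mean score was 1.06 and -0.19. Over the 8 knockdown libraries, total included, r was negative for 41 of 41 members with a median of -0.88, and 38 were at an unadjusted exact permutation p under 0.05, where 4.99% of all genes tested were. The strongest was Lgals3bp (r = -0.95, rho = -0.98, exact permutation p = 7.4e-05, adjusted p = 0.0992), followed by Ddx58 (r = -0.95, rho = -0.95, exact permutation p = 0.000149, adjusted p = 0.0992). Without dorsal knockdown 3 and ventral knockdown 3, the knockdown libraries farthest from the median Acss2 of the arm, the median r was -0.81, and r was -0.91 for Lgals3bp and -0.95 for Ddx58. The 3 knockdown libraries with the lowest Acss2, dorsal 3, dorsal 4 and ventral 2, had the 3 highest member scores of the arm, and the 3 with the highest Acss2, ventral 3, the total library and dorsal 1, had the 3 lowest scores. Over the 7 control libraries, in which Acss2 ranged only from 47.5 to 58.6 CPM, r was positive for 37 of 41 members with a median of 0.22, and 0 were negative at an unadjusted p under 0.05 where 1.73% of all genes tested were. The difference between arms was not tested, and ventral control 2 was high in the members at 53.9 CPM of Acss2. The member score itself gave r = -0.92 and rho = -0.95 over the knockdown libraries, -0.70 and -0.59 over all 15, and 0.23 and 0.14 over the controls, given as descriptions.

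**Figure D4:**
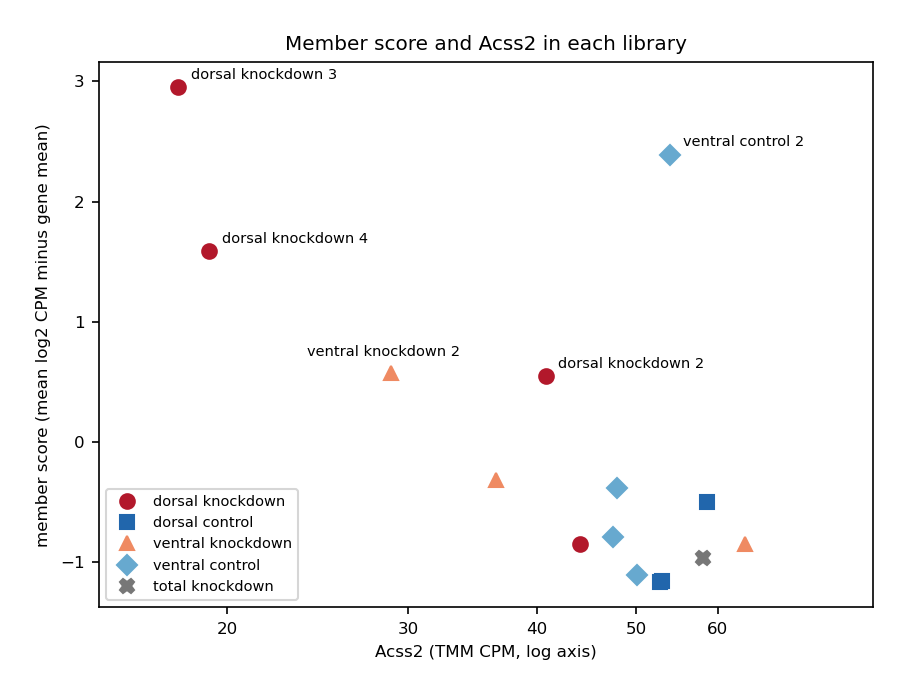
Points are libraries after ethanol, with Acss2 in CPM on a log axis across and the member score (mean log2 CPM minus the mean of each gene) upward. Among knockdown libraries the score runs from 2.95 at 17.9 CPM of Acss2 down to -0.97 at 58.0 CPM, while ventral control 2 lies alone at 2.39 and 53.9 CPM.

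With the 4 group means kept in the model, the slope on log2 Acss2 was negative for 40 of 40 members, with a median of -1.65 log2 units per doubling of Acss2 (all genes 0.00). By edgeR 0 members and 0 genes were called (0%), and 16 members were negative at an unadjusted p under 0.05, where 4.71% of all genes tested were. The smallest p were those of Trim25 (-1.37, SE 0.33, unadjusted p = 0.00113), Lgals3bp (-1.82, SE 0.50, unadjusted p = 0.00297) and Parp14 (-2.04, SE 0.63, unadjusted p = 0.00586), each with an adjusted p of 0.565 by edgeR. DESeq2 called 33 of 19774 genes (0.167%), among them Trim25 (-1.38, SE 0.34, adjusted p = 0.0368). Without dorsal knockdown 1, or without dorsal knockdown 3, 3 members had an unadjusted p under 0.05, with medians of -1.29 and -1.18, and without dorsal knockdown 3 the slope was negative for 37 of 38. Without ventral control 2 there were 36 such members with a median of -1.73, whereas the 4.71% of all genes is from the fit with no library left out.

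Genes around the members were read from lists of the pathway, beside 7769 of all 14578 genes tested that were higher in dorsal knockdown. Of all genes tested, 3.39% were higher there at an unadjusted p under 0.05 by edgeR. Of 13 interferon ligand genes, 11 had 0 reads in all 15 libraries, Ifng had 3 and Ifne 2, of 124473211 gene reads, while the members had 54714. With 0 reads a ligand gene could hold up to 3 reads over these libraries, for counting error only, so the transcripts of these 11 genes were not detectable at this depth. Receptors and JAK-STAT genes were higher in dorsal knockdown in 8 of 13 (median log2 fold change 0.32), a share near that of all genes. Of these 13, 3 were higher at an unadjusted p under 0.05, a larger share than the 3.39% of all genes, and none was called. Jak1, a receptor-bound kinase, had a log2 fold change of 0.09 (SE 0.23). Of 7 feedback inhibitors 4 were higher (median 1.07), again near the share of all genes that were higher. At an unadjusted p under 0.05, 3 of the 7 were higher, again a larger share than 3.39%. Of 17 genes upstream of interferon 14 were higher (median 0.60, 6 at an unadjusted p under 0.05), a larger share than that of all genes. Of 49 further interferon-stimulated genes tested, 48 were higher in dorsal knockdown (median 1.77) and 26 were at an unadjusted p under 0.05. The sum of that list was 326, 448, 1298 and 697 CPM in dorsal knockdown 1 to 4, against 352, 379 and 342 CPM in dorsal control 1 to 3, and it was 874 CPM in ventral control 2, so that the 3 highest libraries were the same as for the members.

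Markers of microglia and reactive astrocytes were higher in dorsal knockdown, as the members were, and their part in the results was not tested. There, 1 of 8 homeostatic astrocyte markers (median log2 fold change -0.14) and 0 of 4 oligodendrocyte precursor markers (median -0.26) were higher. All 7 mature oligodendrocyte markers were higher (median 0.26). In the ventral comparison, 12 of 14 microglia markers (median 0.13) and 8 of 11 reactive astrocyte markers (median 0.22) were higher, unlike most members. All 14 microglia markers were higher in dorsal knockdown (median log2 fold change 1.11), and none of them was at 0. Of these markers 9 were at an unadjusted p under 0.05, where 3.39% of all genes tested were higher at that level. Their summed level was 565 to 1545 CPM in dorsal knockdown, against 382 to 532 CPM in dorsal control, and 507 to 715 CPM in ventral knockdown, against 402 to 923 CPM in ventral control, where number 2 was the highest. All 11 markers of reactive astrocytes were higher in dorsal knockdown (median 2.41, 8 at an unadjusted p under 0.05), none of them was at 0, and their sums were 924 to 4975 CPM in dorsal knockdown, against 415 to 652 CPM in dorsal control. In the ventral tissue these sums were 617 to 2124 CPM in knockdown and 391 to 2067 CPM in control. That list includes Cxcl10, which interferon also induces. The lists parted in some libraries. In dorsal knockdown 1 the reactive astrocyte sum, 1286 CPM, was above every dorsal control, while the member sum of 178 CPM was not. Ventral knockdown 2 had a reactive astrocyte sum of 2124 CPM, above the 2067 CPM of ventral control 2, and a member sum of 447 CPM, against 1340 CPM in ventral control 2. Of 7 markers of monocytes, border macrophages and dendritic cells tested, 3 were higher (median -0.21), and the list summed to 15.8 to 27.4 CPM in dorsal knockdown, against 13.3 to 20.8 CPM in dorsal control. Neutrophil markers, of which 0 of 7 were high enough to test, summed to 1.14 to 2.13 CPM in dorsal knockdown, against 0 to 0.886 CPM in dorsal control. Markers of T and NK cells, with 1 of 10 tested, summed to 1.42 to 15.6 CPM in dorsal knockdown, against 2.38 to 3.59 CPM in dorsal control. B and plasma cell markers, with 2 of 7 tested and both higher (median 2.05), summed to 3.26, 6.60, 10.97 and 10.67 CPM in dorsal knockdown 1 to 4, against 1.33, 1.71 and 2.18 CPM in dorsal control 1 to 3. Every dorsal knockdown library was thus above every dorsal control for that list, as for the neutrophil list. Sums of a list have no share of all genes beside them. In the ventral tissue the B and plasma cell sum was 4.93, 2.60 and 3.10 CPM in knockdown 2 to 4, against 1.62 to 2.62 CPM in control. Ventral control 2, high in the members, held 1.78 CPM of that list. Jchain, the joining chain of secreted antibodies, stood at 1.70, 5.24, 7.28 and 8.67 CPM in dorsal knockdown 1 to 4, against 0, 0.286 and 0.492 CPM in dorsal control 1 to 3. It had the smallest p of all genes in the dorsal comparison (log2 fold change 4.01, SE 0.77, edgeR adjusted p = 0.955), and was named after its values were seen. Neuron markers, which check the tissue, were all tested and had a median log2 fold change of 0.06, with 5 of 8 higher.

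**Figure D5:**
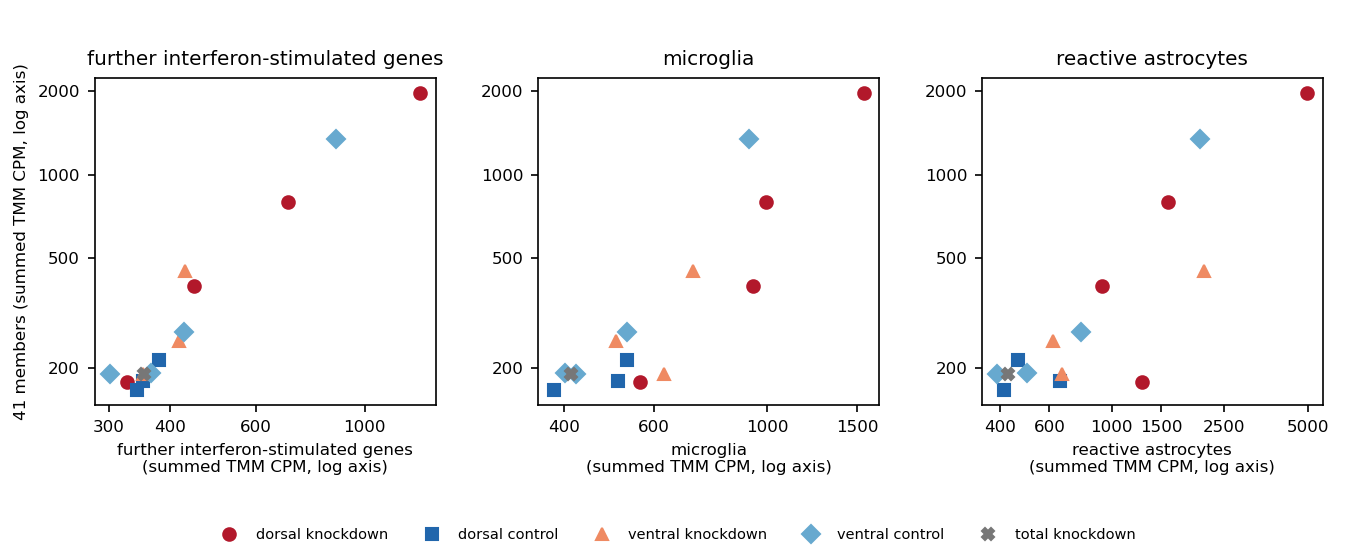
Each point is a library, with the summed CPM of the 41 members upward and that of the further interferon-stimulated genes, the microglia markers or the reactive astrocyte markers across, all on log axes. Dorsal knockdown 3 is at the top right in each panel, and dorsal knockdown 1 lies low on the member axis at a reactive astrocyte sum of 1286 CPM.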

How the data were processed

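The deposited table gives whole-number counts, with 24498 gene rows plus 5 summary lines in 21 columns, and the authors did not normalize it. STAR 2.5.2a, HTSeq 0.6.1p1 and mm10 are named in the submitters' processing notes; no source used here gives the HTSeq strand setting, and the kit is directional per the labels' protocols. Groups came from the sample titles. Ethanol libraries with over 1000000 gene reads were kept: 14 in tests and 15, with the total library, in levels. Summary lines stayed out of library sizes. The main test was that of edgeR 4.0.16 (quasi-likelihood, robust, run under R 4.3.3) with 4 group means, TMM scaling and genes kept by filterByExpr at a count of 10 or more. Benjamini-Hochberg adjustment ran over all genes tested, with calls under 0.05, and each SE was obtained from the log2 fold change and its F value. Correlations used 100000 permutations, and exact ones within arms, in neither case kept within a region. Positions, overlaps and shared 50-base words come from GENCODE M21, and promoters from RefSeq. Named genes were the 2 members of each role with the highest mean level and the 3 with the smallest p in each comparison, and any other member was picked once values were known. The members and lists were chosen with earlier results of these data known. Alternatives were RLE scaling, other filters, the replicate block, other library sets, DESeq2 1.42.0 and leaving out each library. The fit was tested on simulated counts. Replicate numbers were not taken as pairs: of 18 same-numbered pairs of libraries, 6 had deviations that correlated over 0.1. A result on a gene withheld from this text is not reported here.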

Additional observations from a re-analysis of the deposited data

Results flagged for a closer look

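Ventral control 2 stood far from the other 3 ventral controls in 4 of the members named for their level or their p. The gap to the nearest library, as a share of the whole range of the group on the log2 scale, was 0.919 for Oasl2, 0.898 for Ifit1, 0.876 for Isg15 and 0.839 for Ifit3, above Dixon's 95% critical value for 4 samples. Oasl2 stood at 110 CPM there, against 2.99 to 4.04 CPM in the other ventral controls. Chance flags about 1 group in 20, and these genes move together, so the flags are not separate observations. The cause was not tested.

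The untreated libraries were used in no comparison because of their depth. Member reads per 1000000 gene reads were 879 and 701 in dorsal knockdown untreated 1 and 2 (82 of 93311 and 3 of 4279 gene reads), against 294 and 252 in dorsal control untreated 1 and 2 (34 of 115467 and 56 of 221847). The second value rests on 3 reads. Parp9 held 16 and Irf1 13 of the member reads in dorsal knockdown untreated 1. In dorsal control untreated 1 they held 4 and 15, and in dorsal control untreated 2 they held 9 and 15. Acss2 had 0 reads in each untreated library. Genes took 0.991% to 1.43% of the reads counted to a gene, to no feature or as ambiguous in these libraries, whose composition was not compared with that of the ethanol libraries.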

How the results depend on the processing

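No member was called by edgeR under any alternative. Without ventral control 2 the ventral median reversed to 0.539, and without it and dorsal knockdown 3, chosen after seeing the data, to 0.540; Isg15, Usp18 and Samd9l, which ranged from -3.077 to 1.057, -2.804 to 1.022 and -1.665 to 0.117 over single libraries left out, gave 1.060, 1.026 and 0.110 without both. Without both the medians were -0.156 for dorsal against ventral controls and 0.963 for the interaction. Over single libraries left out the medians ranged from 1.489 to 2.840 (dorsal knockdown), -1.405 to 0.539 (ventral knockdown), 0.655 to 2.394 (regions in knockdown), -1.968 to -0.169 (regions in control), 1.950 to 4.016 (interaction) and -1.844 to -1.178 (slope). Genes called were 0 to 8 in the ventral comparison, 0 to 6 between regions in control, 0 to 2 in the interaction, 0 to 1 for the slope and 0 in the others. DESeq2 called 6, 34, 13, 7 and 33 genes in dorsal knockdown, ventral knockdown, regions in control, the interaction and the slope, and 1 member for the slope (Trim25, -1.376). All 20 libraries gave 1 gene called in the ventral comparison and 1 in the interaction. The median correlation with Acss2 was -0.238 without the 2 libraries farthest from the median Acss2. With the replicate block, which the data gave no ground to use as a pairing (4 of 14 libraries correlated best with their own number), the dorsal median was 2.67 and 0 members were called, and members at an unadjusted p under 0.05 between regions in knockdown numbered 24 in place of 7. Of the other settings, 371 of the values that answer a comparison and 1121 of the others kept their direction and side. Few reads limit Zbp1, Apol9a and Apol9b most.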
